A study of Mus musculus with 2 samples.

Results

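Dividing cells of the thymic myeloid sort that lay outside the lineage of type 1 conventional dendritic cells (cDC1) were examined for the lineages they expressed. The sort was profiled by droplet single-cell RNA sequencing, in which each transcript is counted as a unique molecular identifier (UMI). A cell was taken when it held at least 3 UMIs of the proliferation genes Mki67 and Top2a together. It had to hold at most 1 UMI of Xcr1 plus Clec9a (cDC1), at most 1 of Cd3d, Cd3e and Cd3g (T cells), at most 1 of Cd79a plus Ms4a1 (B cells), at most 2 of C1qa, C1qb and C1qc (macrophages) and at most 1 of Siglech (plasmacytoid dendritic cells). The rule found 758 of 19019 cells with a single genotype hashtag, of which 402 came from Mgl2DTR mice and 356 from wild-type (WT) mice. The members were chosen by these measured UMIs, so the levels of the genes in the rule are no result.

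The Mgl2DTR group came from 7-week-old Mgl2DTR_eGFP mice given 500 ng of diphtheria toxin, with 48 h of exposure, and the WT group (hashtag B6WT) from wild-type mice of the same age. The name Mgl2DTR joins Mgl2, which encodes the lectin CD301b of cDC2 and some macrophages, to a receptor for diphtheria toxin (DTR) and to enhanced green fluorescent protein (eGFP), and toxin kills mouse cells that carry this receptor. The labels do not say whether WT mice received toxin, and the number and sex of the animals are not stated. Collagenase D was used to digest the thymus, magnetic depletion took out thymocytes with CD90.2, and viable cells were sorted after staining of CD11c and CD11b. Cells of both genotypes shared 1 pool of droplets, and each genotype counted as 1 library. Differences between genotypes had no replicate check, and no test was made. Every range in brackets is an exact 95% interval that covers counting error only. Ratios are Mgl2DTR over WT.

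Conventional dendritic cells of the cDC2 lineage carry class II molecules and arise from bone marrow precursors that can still divide after reaching a tissue. Granulocytes form in a fixed sequence. Dividing promyelocytes and myelocytes make the azurophil proteases first (Prtn3, Elane, Ctsg, with Mpo) and the secondary granule proteins later (Camp, Ltf, Ngp), and mature neutrophils no longer divide. Monocytes are also made by dividing marrow progenitors, which carry Ly6c2 and then Ccr2. Ifitm1 encodes a small interferon-inducible membrane protein that is also expressed by stem and progenitor cells, and Bex6 is a member of the brain-expressed X-linked gene family that lies on an autosome.

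Genotype was read from an oligonucleotide hashtag on the cell surface. The barcodes are shown because every comparison between genotypes rests on them, and they are given in capitals throughout, since every base is read.
Mgl2DTR: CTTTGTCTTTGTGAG
B6WT: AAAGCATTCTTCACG
The barcodes of the 2 genotypes differed at 12 of 15 positions. Members of the Mgl2DTR group held a median of 867 UMIs of their own hashtag and 28 of the WT hashtag. WT members held a median of 1374 of their own and 19 of the Mgl2DTR hashtag. Fewer than 5 times as many of their own as of the other hashtag were held by 4 Mgl2DTR members and 1 WT member. Granulocyte-like members carried fewer hashtags, with a median of 418 own UMIs in Mgl2DTR cells and 256 in WT cells of sub-cluster 1 below, against 33 and 23 of the other hashtag.

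The members summed to 9027708 UMIs in Mgl2DTR and 5558659 in WT, with medians of 20229.5 and 14903 UMIs per cell. Over all cells of each genotype the medians were 6930 and 7820. Mitochondrial transcripts took a median of 1.63% of the UMIs in Mgl2DTR members and 1.55% in WT members. Of the members, 64 in Mgl2DTR (15.9%) and 56 in WT (15.7%) were called doublets, as cells whose nearest neighbours held cells with a pair of hashtags more often than the 34.0% of all cells. Mgl2, the gene the mouse line is named for, stood at 17.9 CPM (the UMIs of a gene per 1e6 UMIs of the same cells) in all Mgl2DTR cells and 109 CPM in all WT cells.

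Members made up 5.41% of Mgl2DTR cells (4.90 to 5.95%) and 3.07% of WT cells (2.77 to 3.40%), a ratio of 1.76 (1.52 to 2.04). This share is a description, since the rule chose the cells, and it depended on the depth and the denominator. When the rule was applied to cells thinned to 2000 UMIs each, the ratio was 1.24 (1.06 to 1.45). Among cells other than T cells it was 1.45, without sub-cluster 2 below 1.36, and among cells with a hashtag margin above the median of their genotype 1.06 (0.827 to 1.35). Cells with at least 3 UMIs of Mki67 and Top2a, whatever their lineage, were 15.98% of the Mgl2DTR cells and 16.8% of the WT cells. At the edge of the rule, 35 Mgl2DTR and 51 WT members held exactly 3 such UMIs, and 79 Mgl2DTR and 120 WT cells held 2 and stayed outside. Median UMIs were 5866 in Mgl2DTR and 11924 in WT members at 3, and 7700 in Mgl2DTR and 9335 in WT cells at 2. The limit on Xcr1 and Clec9a alone kept out 432 cycling Mgl2DTR and 770 cycling WT cells.

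The members did not form 1 lineage. Clustered among themselves, without cell cycle genes, the genes of the rule and Mgl2, they fell into 12 sub-clusters, of which 9 took a name from marker lists. Sub-cluster 1 was granulocyte precursor-like (Ctsg, Mpo, Elane, Prtn3), 4 neutrophil-like (Ltf, Ngp, Camp), 5 monocyte-like (Fn1, F13a1, Vcan), 3 and 8 cDC2-like (Mmp12, Ear2 and Epcam in 3, Cd209d, Cd209e and Tcf4 in 8) and 9 activated dendritic-like (Il12b, Ccl22, Ccr7). Sub-clusters 2 (Ifitm1, Ifi203, Bex6), 7 (Ly6a, Phf11d, Ifi213) and 10 (Fabp5, Mdk, Tbc1d4) stayed unnamed. These genes define the sub-clusters and are not results. The data went against the label for part of the cells. Sub-cluster 6 was cDC1-like by genes the rule did not use (Ifi205, Rab7b, Naaa, Irf8), held 30 Mgl2DTR and 35 WT cells, and had a median of 6884 UMIs with 43.1% of cells called doublets. Sub-cluster 11 was T cell and thymocyte-like (17 Mgl2DTR and 4 WT cells) and sub-cluster 12 was NK and innate lymphoid-like (8 cells of each genotype). Without these 3 sub-clusters the ratio of shares was 1.75.

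**Figure D1:**
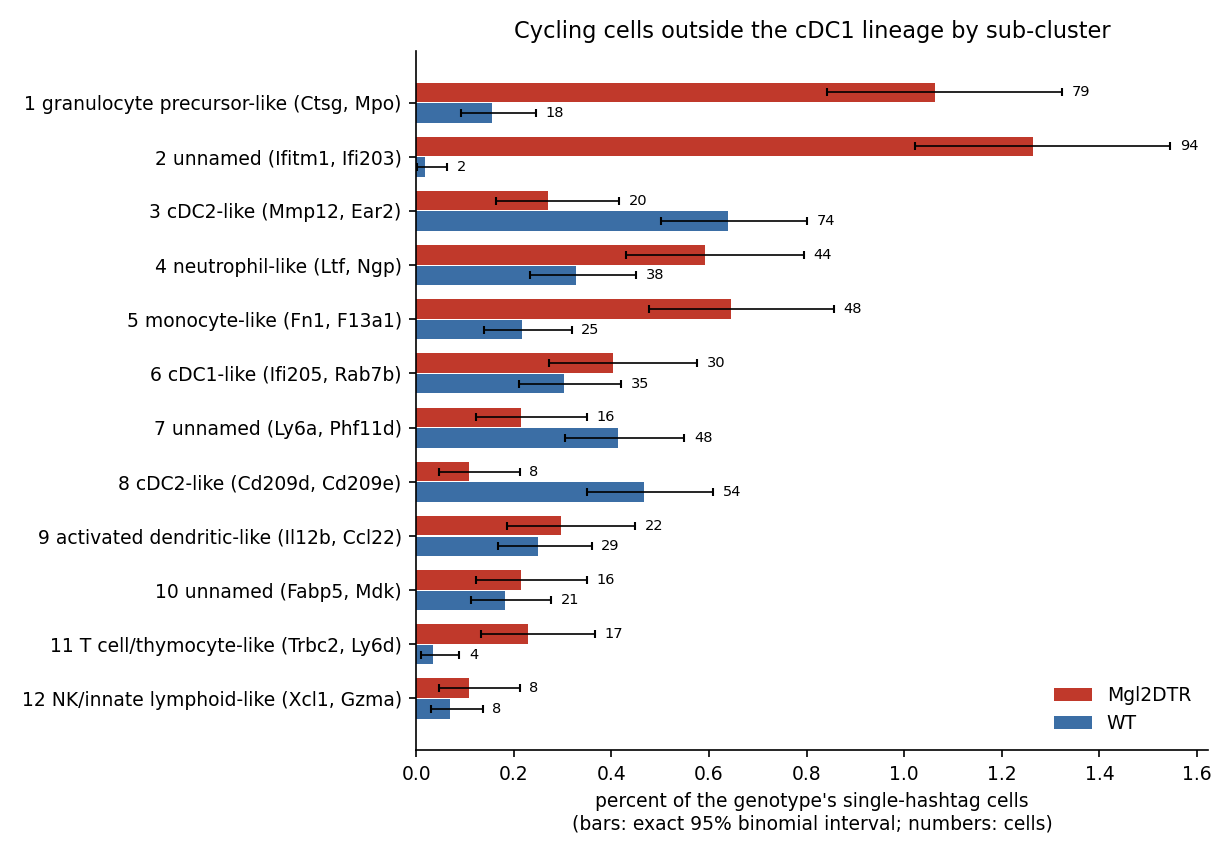
Cells per sub-cluster as a percent of all single-hashtag cells of the genotype, Mgl2DTR above WT in each pair, with exact 95% binomial intervals as error bars and the number of cells beside each bar. Sub-clusters 1 and 2 held 79 and 94 Mgl2DTR cells, against 18 and 2 WT cells, while sub-clusters 3 and 8 held 20 and 8 Mgl2DTR cells, against 74 and 54 WT cells.

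The lineages were not spread alike over the genotypes. Sub-clusters 1 and 4, the granulocyte lineage, held 123 of 402 Mgl2DTR members and 56 of 356 WT members. This was 1.65% of all Mgl2DTR cells and 0.483% of all WT cells, a ratio of 3.42 (2.48 to 4.78). The 2 sub-clusters differed, with ratios of 6.84 (4.06 to 12.1) for sub-cluster 1 and 1.80 (1.14 to 2.86) for sub-cluster 4. Sub-cluster 1 held 19.7% of Mgl2DTR and 5.06% of WT members, and sub-cluster 4 held 10.9% and 10.7%. Monocyte-like sub-cluster 5 held 48 Mgl2DTR and 25 WT cells, with a ratio of 2.99 (1.81 to 5.07). The cDC2-like sub-clusters 3 and 8 held 28 Mgl2DTR cells and 128 WT cells, or 0.377% and 1.10% of all cells, a ratio of 0.341 (0.218 to 0.516). Sub-clusters with markers of dendritic cells in general (3 and 6 to 10) held 27.9% of the Mgl2DTR members and 73.3% of the WT members. Some defining genes of the sub-clusters also differed between the genotypes, so the cells were clustered again without every gene called between genotypes. The granulocyte ratio was then 3.09 (2.25 to 4.28) and the monocyte ratio 3.12 (1.87 to 5.32), while the cDC2 ratio was 0.642 (0.477 to 0.857), with 68 Mgl2DTR and 165 WT cells in 3 clusters. With 1 library per genotype, a sub-cluster held mostly by 1 genotype may be that library and not a cell type.

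Over all members, 9544 genes had at least 50 summed counts. A gene was called higher or lower when its ratio was at least 1.5 either way and its whole interval lay on that side of 1. This called 757 genes higher (7.93%) and 1130 lower (11.8%) in Mgl2DTR members, and the median log2 ratio of all measured genes was 0.01. With every cell scaled to the same total, the split was 856 higher and 833 lower. Without sub-clusters 6, 11 and 12 it was 758 higher and 1189 lower. In summed counts, fewer cells of a lineage and less of its RNA per cell cannot be told apart, which is why levels within sub-clusters follow below.

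**Figure D2:**
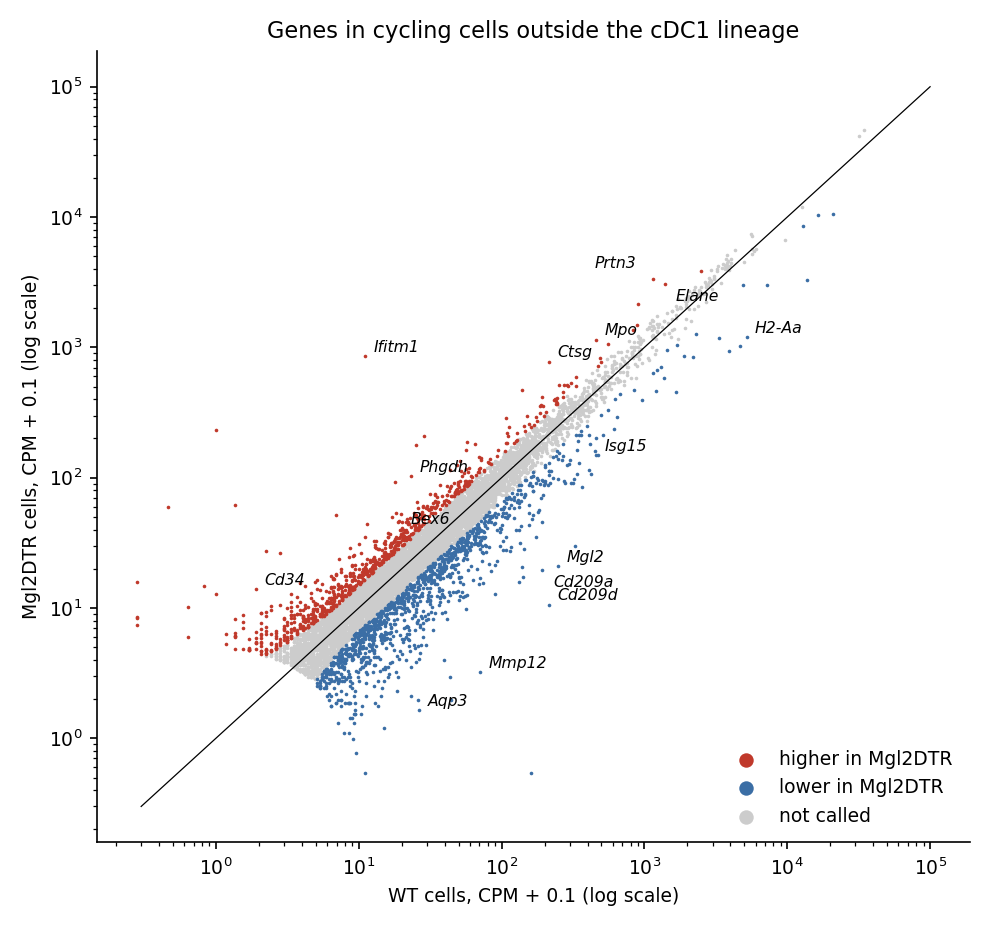
Level of each measured gene in Mgl2DTR members (vertical) and WT members (horizontal), both in CPM plus 0.1 on log axes, with genes called higher in Mgl2DTR in red, called lower in blue and not called in grey. Ifitm1 stands far above the line of equal levels (861 CPM in Mgl2DTR, 10.97 CPM in WT), and Mgl2, Cd209a, Cd209d, Mmp12 and Aqp3 lie below it.

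By the naming rule, the 12 genes with the largest ratios were led by Ifitm1 at 78.5 (61.0 to 103). Next came Cd34, a surface glycoprotein of stem and progenitor cells, at 7.76 (4.08 to 16.6), Lipg, endothelial lipase, at 7.58 (5.44 to 10.9), and Dmkn, first described in skin as dermokine, at 5.15 (4.18 to 6.41). Phgdh, the first enzyme of serine synthesis, stood at 4.43, the transcription factors Maf and Sox4 at 4.36 and 3.89, and Plppr3 at 3.56. Granulocyte genes Ctsg and Ms4a3 stood at 3.61 and 3.40, and Mvd, an enzyme of the mevalonate pathway, and the pattern receptor Clec4e at 3.36 and 3.31. The 12 smallest ratios were led by Mmp12, macrophage metalloelastase, at 0.044 (0.029 to 0.065). Among them were the lectins Cd209d (0.049), Cd209e (0.066), Mgl2 (0.084) and Cd209a (0.1003), the water and glycerol channel Aqp3 (0.059), the adhesion molecule Epcam (0.119), the eosinophil-type ribonuclease Ear2 (0.123) and the tight junction gene Cldn1 (0.140). Apod, Gfra2 and Flt1 stood at 0.072, 0.098 and 0.121.

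Genes of granulocyte precursors were higher in the Mgl2DTR members. Of 10 genes on the list, all were measured, 8 were called higher and none lower, beside 7.93% and 11.8% of all measured genes. Their median log2 ratio was 1.35, against 0.01 over all measured genes. The list summed to 9684 CPM in Mgl2DTR members and 3971 CPM in WT members. Prtn3, proteinase 3, had 0 to 1152 UMIs per cell in Mgl2DTR members, with a median of 2 and a 90th percentile of 291.7. In WT members it had 0 to 1389 UMIs, with a median of 0 and a 90th percentile of 6. The highest cells of the genotypes were thus of the same order, and the number of cells with the gene differed: 147 Mgl2DTR and 34 WT members had at least 10 Prtn3 UMIs. Summed, Prtn3 stood at 3365 CPM in Mgl2DTR and 1142 CPM in WT members, a ratio of 2.95 (2.87 to 3.03). Elane, neutrophil elastase, stood at 3064 CPM in Mgl2DTR and 1397 CPM in WT members, and Mpo, myeloperoxidase, at 1147 CPM in Mgl2DTR and 457 CPM in WT members. All 101 Mgl2DTR and all 30 WT members with at least 10 Elane UMIs also had at least 10 Prtn3 UMIs. The transcription factors of this stage, Gfi1 and Cebpe, had ratios of 2.60 (1.80 to 3.85) and 1.69 (1.54 to 1.85), and Fcnb and Hdc were not called, at 1.04 and 1.15.

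Thinned to 2000 UMIs, 37.4% of 390 Mgl2DTR members (32.6 to 42.4%) and 15.99% of 344 WT members (12.3 to 20.3%) held at least 3 UMIs of the granulocyte precursor list. Unthinned, the shares were 55.6% and 22.4%. In T cells, which should lack these genes, the thinned shares were 1.13% in Mgl2DTR and 0.341% in WT. T cells here held at least 3 UMIs of Cd3d, Cd3e and Cd3g, with median depths of 4199 UMIs in Mgl2DTR and 4973.5 in WT. Of the 12 genes of the neutrophil list Retnlg and G0s2 were called higher and Ly6g lower, beside 7.93% of all measured genes called higher and 11.8% lower. The thinned shares for that list were 46.7% of Mgl2DTR and 23.8% of WT members, and 14.02% of Mgl2DTR and 9.05% of WT T cells. Camp, the antimicrobial peptide cathelicidin, stood at 6643 CPM in Mgl2DTR and 9579 CPM in WT members, and the neutrophil calcium-binding gene S100a8 at 46968 CPM in Mgl2DTR and 34535 CPM in WT members. Neither was called.

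These results depended on cells with low hashtag counts. Among members with a hashtag margin above the median of their genotype, 114 Mgl2DTR and 168 WT cells were left, with 1 of the 79 Mgl2DTR and 2 of the 18 WT cells of sub-cluster 1. There the ratio of Prtn3 was 0.270, of Elane 0.173, of Mpo 0.207, of Ctsg 0.0767 and of Ms4a3 0.287, while the share of members with the granulocyte precursor list had a ratio of 3.17. Over all genes, 530 of 6924 were called higher and 348 lower there, with 186 and 269 of these shared with the calls over all members and 17 genes called the other way. Whether the hashtag count had a part in the granulocyte result was not tested.

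**Figure D3:**
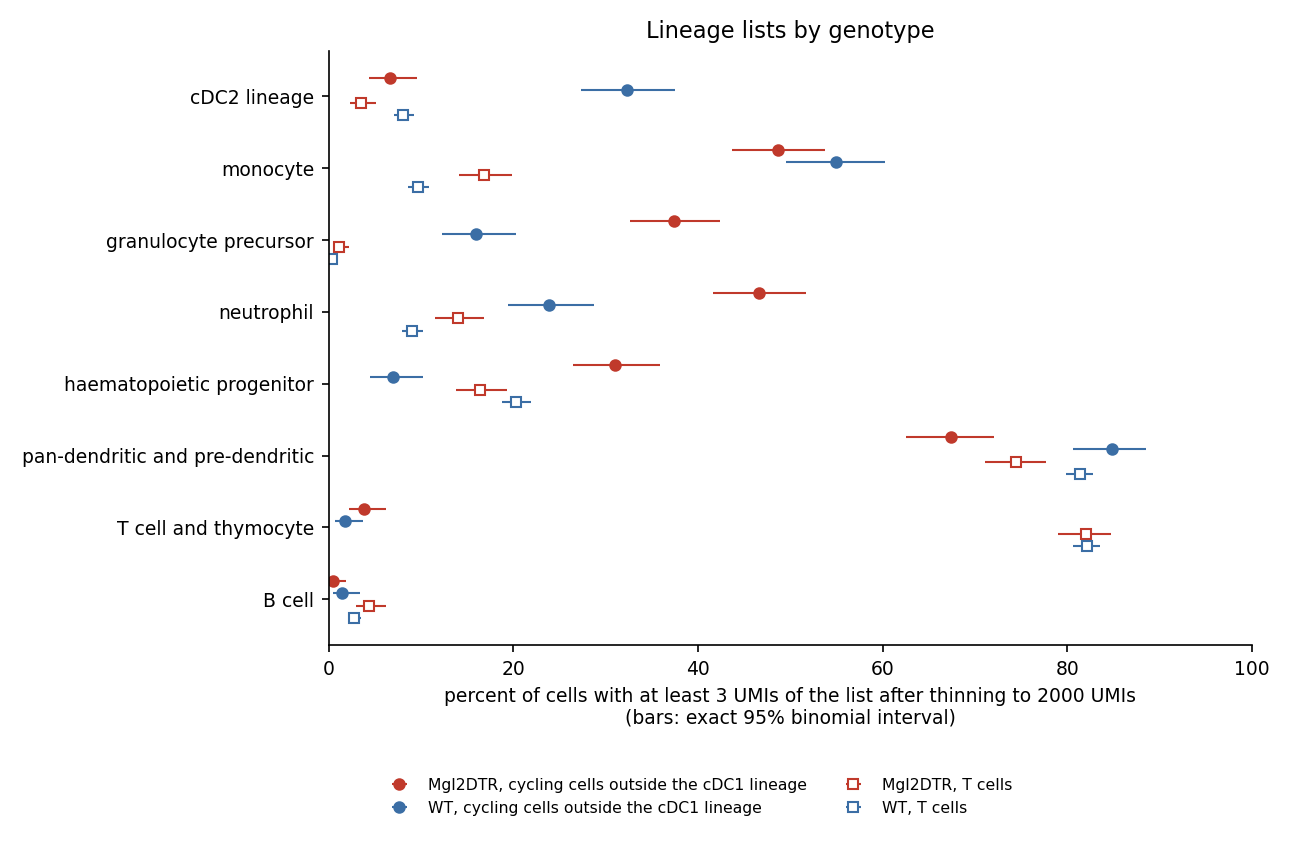
Percent of cells with at least 3 UMIs of a lineage list after thinning to 2000 UMIs, in members (filled circles) and in T cells (open squares), Mgl2DTR in red above WT in blue, with exact 95% binomial intervals. The granulocyte precursor list reached 37.4% of Mgl2DTR and 15.99% of WT members with T cells near 0, whereas the pan-dendritic list was held by 67.4% of Mgl2DTR and 84.9% of WT members and by 74.5% of Mgl2DTR and 81.4% of WT T cells.

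Within granulocyte precursor-like sub-cluster 1 few azurophil genes were called. Prtn3 stood at 9927 CPM in 79 Mgl2DTR cells and 10863 CPM in 18 WT cells, Elane at 9465 CPM in Mgl2DTR and 13826 CPM in WT cells, and Mpo at 3580 CPM in Mgl2DTR and 4745 CPM in WT cells. None of these 3 was called. Of 11 measured genes of the list of azurophil proteases and their partners 2 were called higher and none lower, with a median log2 ratio of 0.10. Of the 10 genes on the precursor list, none was called higher and 2 lower there, among 5282 measured genes of which 195 were called higher (3.69%) and 132 lower (2.5%). The largest ratios of this sub-cluster were those of Ltf, lactoferrin, at 8.44 (5.69 to 13.1), Lipg at 8.11, S100a6 at 4.14, Lilrb4a at 3.999 and Ifitm3 at 3.67. All 4 measured IFITM genes were called higher in it. The smallest ratios were those of Wsb1 (0.455), Pxylp1 (0.465), Ncam1 (0.472), Cd74 (0.479) and Rsrp1 (0.479).

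In neutrophil-like sub-cluster 4, the later stage, 44 Mgl2DTR and 38 WT cells were compared. Prtn3 stood at 936 CPM in Mgl2DTR cells and 571 CPM in WT cells (1.64, 1.45 to 1.85), and Elane at 645 CPM in Mgl2DTR and 387 CPM in WT cells. Of the 620 Elane UMIs of the Mgl2DTR cells 225 lay in 1 cell and 407 in 3, and 19 cells had none. Without the highest Mgl2DTR cell the ratio was 1.10 for Elane and 1.38 for Prtn3, below the 1.5 of a call. Without the highest cell of each genotype, Elane stood at 426 CPM in Mgl2DTR and 284 CPM in WT cells. Prtn3 then stood at 787 CPM in Mgl2DTR and 497 CPM in WT cells. The secondary granule gene Camp stood at 37366 CPM in Mgl2DTR and 56571 CPM in WT cells (0.661, 0.651 to 0.670). Of 2770 measured genes, 243 were called higher (8.77%) and 105 lower (3.79%). Of the precursor list 6 of 9 measured genes were called higher and 1 lower, and of nucleolar and ribosome assembly genes 6 of 8 were called higher. Interferon-response genes were called lower in 6 of 12, and none higher. Mt1, a metallothionein, had the largest ratio (5.57, 3.04 to 11.2), followed by Fdps of the mevalonate pathway (4.50), the decoy receptor Il1r2 (3.83), S100a6 (3.43) and Ier3 (3.21). Ifi27l2a (0.356), Ncam1 (0.389), Xaf1 (0.392), Rsrp1 (0.464) and the mature neutrophil marker Ly6g (0.473) had the smallest. Of the Mgl2DTR cells of this sub-cluster 13.6% were called doublets, and without them 169 genes were called higher and 122 lower.

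The promoters of the azurophil genes, whose transcripts were found in the same cells, and of Ifitm1 are given here from 250 bases before to 50 bases after the RefSeq start (GRCm38.p6, plus strand in all 4). Capitals mark GAGGAA, a core recognised by ETS factors such as PU.1, searched on both strands.
Prtn3, chr10:79879417-79879716: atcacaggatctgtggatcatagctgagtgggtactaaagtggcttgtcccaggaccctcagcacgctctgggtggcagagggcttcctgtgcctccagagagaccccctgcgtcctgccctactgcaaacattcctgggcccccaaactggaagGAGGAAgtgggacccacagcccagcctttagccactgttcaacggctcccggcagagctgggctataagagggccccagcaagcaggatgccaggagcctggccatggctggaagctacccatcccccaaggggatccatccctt
Elane, chr10:79886062-79886361: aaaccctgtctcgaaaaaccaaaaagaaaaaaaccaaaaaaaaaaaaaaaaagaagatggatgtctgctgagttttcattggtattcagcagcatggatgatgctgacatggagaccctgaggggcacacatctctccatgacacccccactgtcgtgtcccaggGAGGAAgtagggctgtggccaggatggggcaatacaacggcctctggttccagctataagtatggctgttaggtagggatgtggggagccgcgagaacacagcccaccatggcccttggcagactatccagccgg
Mpo, chr11:87793534-87793833: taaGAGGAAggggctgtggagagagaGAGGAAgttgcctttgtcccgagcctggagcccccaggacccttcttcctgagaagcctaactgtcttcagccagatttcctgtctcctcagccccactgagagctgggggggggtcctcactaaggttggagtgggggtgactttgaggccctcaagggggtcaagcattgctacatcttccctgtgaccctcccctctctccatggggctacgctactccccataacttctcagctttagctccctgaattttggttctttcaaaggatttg
Ifitm1, chr7:140967826-140968125: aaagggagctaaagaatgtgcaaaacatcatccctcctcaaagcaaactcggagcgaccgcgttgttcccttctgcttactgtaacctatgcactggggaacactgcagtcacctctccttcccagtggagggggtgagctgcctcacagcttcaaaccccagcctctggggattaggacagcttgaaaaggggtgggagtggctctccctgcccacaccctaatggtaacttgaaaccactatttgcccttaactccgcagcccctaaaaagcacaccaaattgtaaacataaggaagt
GAGGAA lay at base 156 of the Prtn3 window, base 166 of the Elane window and bases 4 and 27 of the Mpo window, and was held by 28.3% of 32851 promoter windows of this length. TTGCNNAA, recognised by C/EBP factors and held by 10.8%, and the interferon-stimulated response element, held by 3.44%, were found in none of the 4 windows. Prtn3 (ENSMUSG00000057729, chromosome 10, 79874476 to 79883174 in GENCODE vM21) and Elane (ENSMUSG00000020125, 79886247 to 79888215) are neighbours on the plus strand, 3072 bases apart. These matches are descriptions of sequence and not of binding.

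Of the genes named by rule over all members, Ifitm1 had the ratio farthest from 1. In Mgl2DTR members 194 of 402 cells held at least 1 Ifitm1 UMI, with a median of 0, a 90th percentile of 62 and a highest value of 427 per cell. In WT members 38 of 356 cells did, with a 90th percentile of 1 and a highest value of 14. At least 10 UMIs were held by 112 Mgl2DTR members and by 1 WT member. Summed, Ifitm1 stood at 861 CPM (842 to 881) in Mgl2DTR members and 10.97 CPM (8.39 to 14.1) in WT members. Over all alternative settings its ratio lay between 42.3 and 150.5. Thinned to 2000 UMIs, 31.5% of Mgl2DTR and 0.872% of WT members held it, against 3.68% of Mgl2DTR and 1.89% of WT T cells. The share in Mgl2DTR members lay above that of Mgl2DTR T cells. In WT members the share rested on 3 of 344 cells, and its interval (0.180 to 2.53%) included that of WT T cells (1.41 to 2.49%). The interval of Mgl2DTR T cells (2.42 to 5.35%) overlapped that of WT T cells. How much of these shares was free RNA was not tested.

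The gene was not spread evenly over the Mgl2DTR members. Of the 112 cells with at least 10 UMIs, 73 lay in unnamed sub-cluster 2 and 23 in monocyte-like sub-cluster 5. In sub-cluster 5 Ifitm1 stood at 1955 CPM in 48 Mgl2DTR cells and 12.5 CPM in 25 WT cells, a ratio of 157 (67.0 to 482). In cDC2-like sub-cluster 3 it stood at 398 CPM in 20 Mgl2DTR cells and 4.83 CPM in 74 WT cells (82.4, 36.8 to 229). Of the 119 UMIs of these Mgl2DTR cells 68 lay in 1 cell and 107 in 3, and without the highest cell the level was 187 CPM and the ratio 38.8 (16.6 to 111). Levels were lower in the granulocyte sub-clusters, with 75.4 CPM in Mgl2DTR and 5.69 CPM in WT cells of sub-cluster 1 and 56.2 CPM in Mgl2DTR and 8.88 CPM in WT cells of sub-cluster 4. These too rested largely on 1 cell, without which they were 29.5 CPM and 26.6 CPM in the Mgl2DTR cells of sub-clusters 1 and 4. In unnamed sub-cluster 10, 62 of the 69 UMIs of 16 Mgl2DTR cells lay in 1 cell and 12 cells had none. In cDC2-like sub-cluster 8 it stood at 27.4 CPM in 8 Mgl2DTR cells and 18.9 CPM in 54 WT cells, and the interval of the ratio (0.271 to 5.07) included 1. Ifitm1 and Prtn3 were partly separate, since 38 Mgl2DTR cells held at least 10 UMIs of both, which was 33.9% of the Ifitm1 cells and 25.9% of the Prtn3 cells. No WT cell did, with 1 and 34 cells to draw from.

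**Figure D4:**
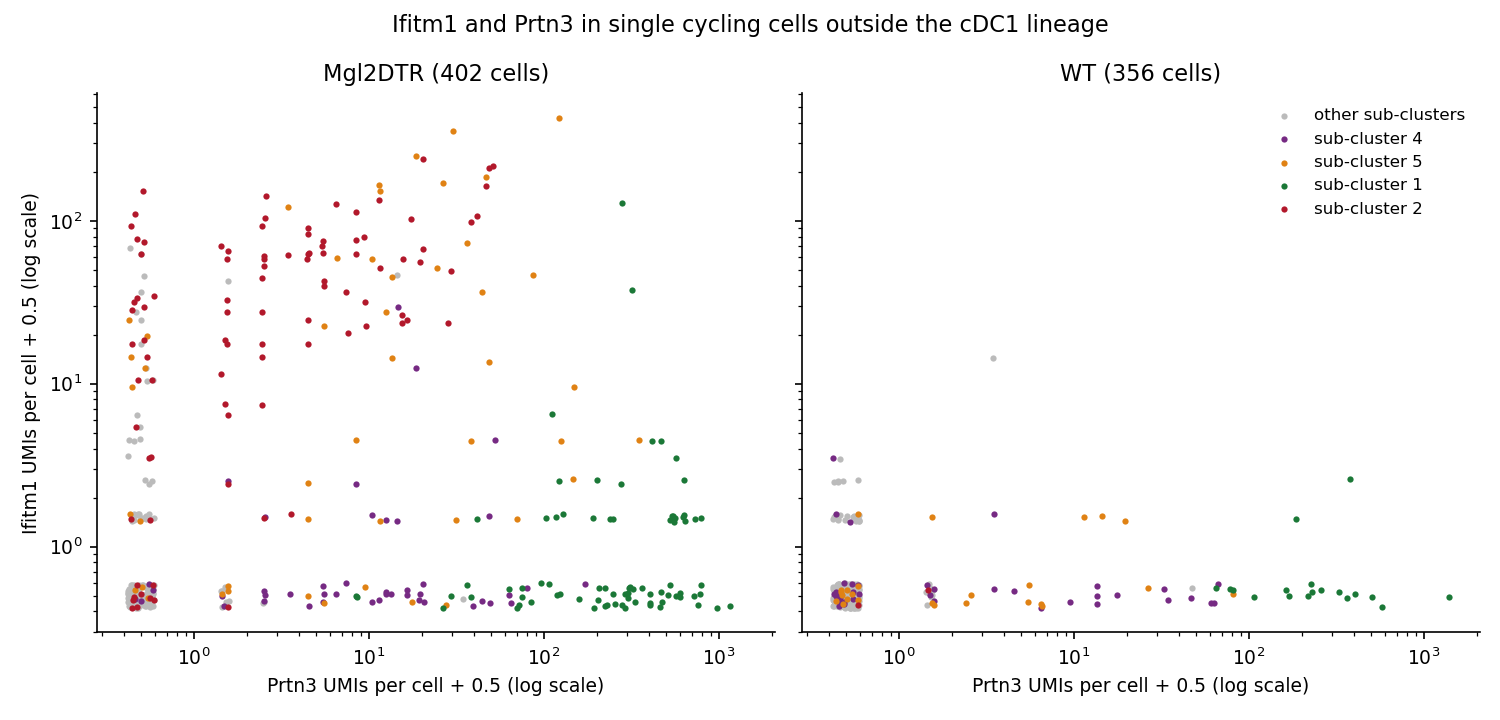
UMIs per cell of Prtn3 (horizontal) and Ifitm1 (vertical) plus 0.5 on log axes, with a small seeded spread for overlapping points, in 402 Mgl2DTR members (left) and 356 WT members (right), coloured by sub-cluster. Cells of sub-cluster 2 lie high on the Ifitm1 axis in Mgl2DTR, where 112 cells have at least 10 UMIs, against 1 cell in WT, and cells of sub-cluster 1 lie far along the Prtn3 axis in both genotypes.

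Sub-cluster 2 held 94 Mgl2DTR cells and 2 WT cells. It kept 95 of its 96 cells in a cluster of 96 Mgl2DTR and 5 WT cells when the IFITM genes were left out of the clustering, and 71 of them in a cluster of 92 Mgl2DTR and 8 WT cells when every gene called between the genotypes was left out. That last cluster also took 19 of the 21 cells of sub-cluster 11. Sub-cluster 2 had a median depth of 24440.5 UMIs, and 15.6% of its cells were called doublets, among them the 2 WT cells. Besides Ifitm1, its leading genes were Ifi203, a member of the interferon-inducible p200 family, Bex6, the surface protein Cd7, the muscle-type cytochrome oxidase subunit Cox6a2, and Mef2c, a transcription factor of lymphoid and myeloid progenitors. Igkc led them only through 1 WT cell, which held 1554 of the 1825 Igkc UMIs of the WT members. Of the haematopoietic progenitor list, Cd34, Bex6, Ifitm1 and Sox4 stood at least 2-fold above the other members, and of the plasmacytoid list Cox6a2 and Runx2. That was too few markers for a name once the genes given with the rule were set aside, and at a clustering resolution of 0.4 a cluster of 111 Mgl2DTR and 6 WT cells took the name plasmacytoid-like.

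Bex6 and Cd34 in Mgl2DTR members lay mostly in these cells. In sub-cluster 2 Bex6 was held by 75.5% of 94 Mgl2DTR cells (108 CPM) and Cd34 by 44.7% (34.8 CPM). The 2 WT cells had no UMI of either and are too few for a comparison. Levels were higher in the 17 Mgl2DTR cells of T cell and thymocyte-like sub-cluster 11, at 142.5 CPM for Bex6 and 99.1 CPM for Cd34. Of the 12 genes on the progenitor list 7 stood at least 2-fold above the other members in sub-cluster 11, against 4 in sub-cluster 2. These genes are thus not particular to sub-cluster 2. Over all members Bex6 stood at 41.2 CPM in Mgl2DTR and 19.97 CPM in WT, a ratio of 2.06 (1.67 to 2.57), and the ratio was 0.844 without sub-cluster 2. The ratio of Cd34 was 3.51 without it and that of Ifitm1 42.3. Of the 12 progenitor genes 8 were measured, and Cd34, Bex6, Ifitm1, Myb and Sox4 were called higher, beside 7.93% of all measured genes. Kit, the stem cell factor receptor, stood at 28.0 CPM in Mgl2DTR and 38.1 CPM in WT members and was not called. The thinned share of cells with at least 3 UMIs of the progenitor list was 31.03% in Mgl2DTR and 6.98% in WT members. In T cells of the same genotypes, which express some of its genes themselves, it was 16.4% and 20.3%. The list includes Ifitm1 and Bex6, which were given with the rule. It summed to 1363 CPM in Mgl2DTR and 327 CPM in WT members, of which Ifitm1 made 861 and 10.97 CPM. The thinned share is therefore not separate from the Ifitm1 result, and the list without Ifitm1 was not tested.

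cDC2 genes were lower in the Mgl2DTR members. Of the 12 genes on the list 10 were measured and all 10 were called lower, beside 11.8% of all measured genes. Their median log2 ratio was -2.92, and the list summed to 235 CPM in Mgl2DTR and 1286 CPM in WT members. Mgl2 had 0 to 20 UMIs per cell in Mgl2DTR members and 0 to 85 in WT members, with 90th percentiles of 1 and 12. At least 10 UMIs were held by 4 Mgl2DTR and 48 WT members. Summed, Mgl2 stood at 20.9 CPM (18.1 to 24.1) in Mgl2DTR and 248 CPM (236 to 262) in WT members. Cd209a, a homologue of human DC-SIGN, stood at 19.4 CPM in Mgl2DTR and 193 CPM in WT members, and Cd209d at 10.5 CPM in Mgl2DTR and 214 CPM in WT members. The lineage factors Irf4 and Klf4 had ratios of 0.264 and 0.515, the chemokine Ccl17 0.147, the lectin Clec10a 0.241 and Sirpa, the receptor for CD47, 0.656.

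Thinned to 2000 UMIs, 6.67% of Mgl2DTR members (4.40 to 9.62%) and 32.3% of WT members (27.4 to 37.5%) held at least 3 UMIs of the cDC2 list. T cells held them in 3.54% (Mgl2DTR) and 8.10% (WT). Unthinned, 53.1% of Mgl2DTR and 68.9% of WT members did. For single genes, Cd209d was held by 2.31% of Mgl2DTR members, close to the 1.98% of Mgl2DTR T cells, and by 14.5% of WT members, against 5.60% of WT T cells. Even so, 3 Mgl2DTR members held at least 10 Cd209d UMIs, with a highest value of 31. The share with Mgl2 was above that of T cells, at 4.87% of Mgl2DTR members and 1.42% of Mgl2DTR T cells, and 24.1% of WT members and 5.07% of WT T cells.

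Within the cDC2-like sub-clusters Mgl2 was also lower in Mgl2DTR cells. In sub-cluster 3 Mgl2 stood at 100.4 CPM in 20 Mgl2DTR cells and 524 CPM in 74 WT cells (0.191, 0.128 to 0.276), and 30% of the Mgl2DTR and 79.7% of the WT cells held it. Of the 30 Mgl2 UMIs of these Mgl2DTR cells 18 lay in 1 cell, and without it the level was 44.0 CPM. In sub-cluster 8, with 8 Mgl2DTR and 54 WT cells, it stood at 192 CPM in Mgl2DTR and 563 CPM in WT cells (0.340, 0.209 to 0.526), with 11 of the 21 UMIs of the Mgl2DTR cells in 1 cell and 109.6 CPM without it. Cd209a differed less in sub-cluster 3, at 274 CPM in Mgl2DTR and 354 CPM in WT cells (0.774, 0.604 to 0.982), and was not called. This rested partly on 1 cell, which held 24 of the 82 Cd209a UMIs of the Mgl2DTR cells. Without it the level was 213 CPM and the ratio 0.5999, beyond the 1.5-fold limit of a call. In sub-cluster 8 Cd209a stood at 420 CPM in Mgl2DTR and 640 CPM in WT cells. Without the highest Mgl2DTR cell it stood at 331 CPM there, with a ratio of 0.517. Of 3679 genes measured in sub-cluster 3, 186 were called higher (5.06%) and 184 lower (5.0%). The activation marker Cd69 (2.93), Ifitm2 (2.84), Fosb (2.43), Clec10a (2.40) and Plac8 (2.39) had the largest ratios, and Ear2 (0.166), Mgl2, Sept3 (0.196), Anxa4 (0.257) and Mmp12 (0.276) the smallest. All 3 measured IFITM genes were called higher, and of 9 cDC2 genes 2 were called higher and 4 lower. The 2 closely related lectins Mgl2 and Clec10a thus stood on opposite sides of 1 here, and their reads can be hard to tell apart where sequence is shared.

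Mgl2 UMIs were also found in granulocyte precursor-like sub-cluster 1, at 33.2 CPM in Mgl2DTR and 49.4 CPM in WT cells (0.672, 0.430 to 1.08). Of its cells 54.4% in Mgl2DTR and 72.2% in WT held at least 1, at median depths of 33725 and 26347.5 UMIs, against 2.69% of Mgl2DTR and 10.5% of WT T cells at their lower depths. In neutrophil-like sub-cluster 4 it stood at 2.08 CPM in Mgl2DTR and 8.88 CPM in WT cells.

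**Figure D5:**
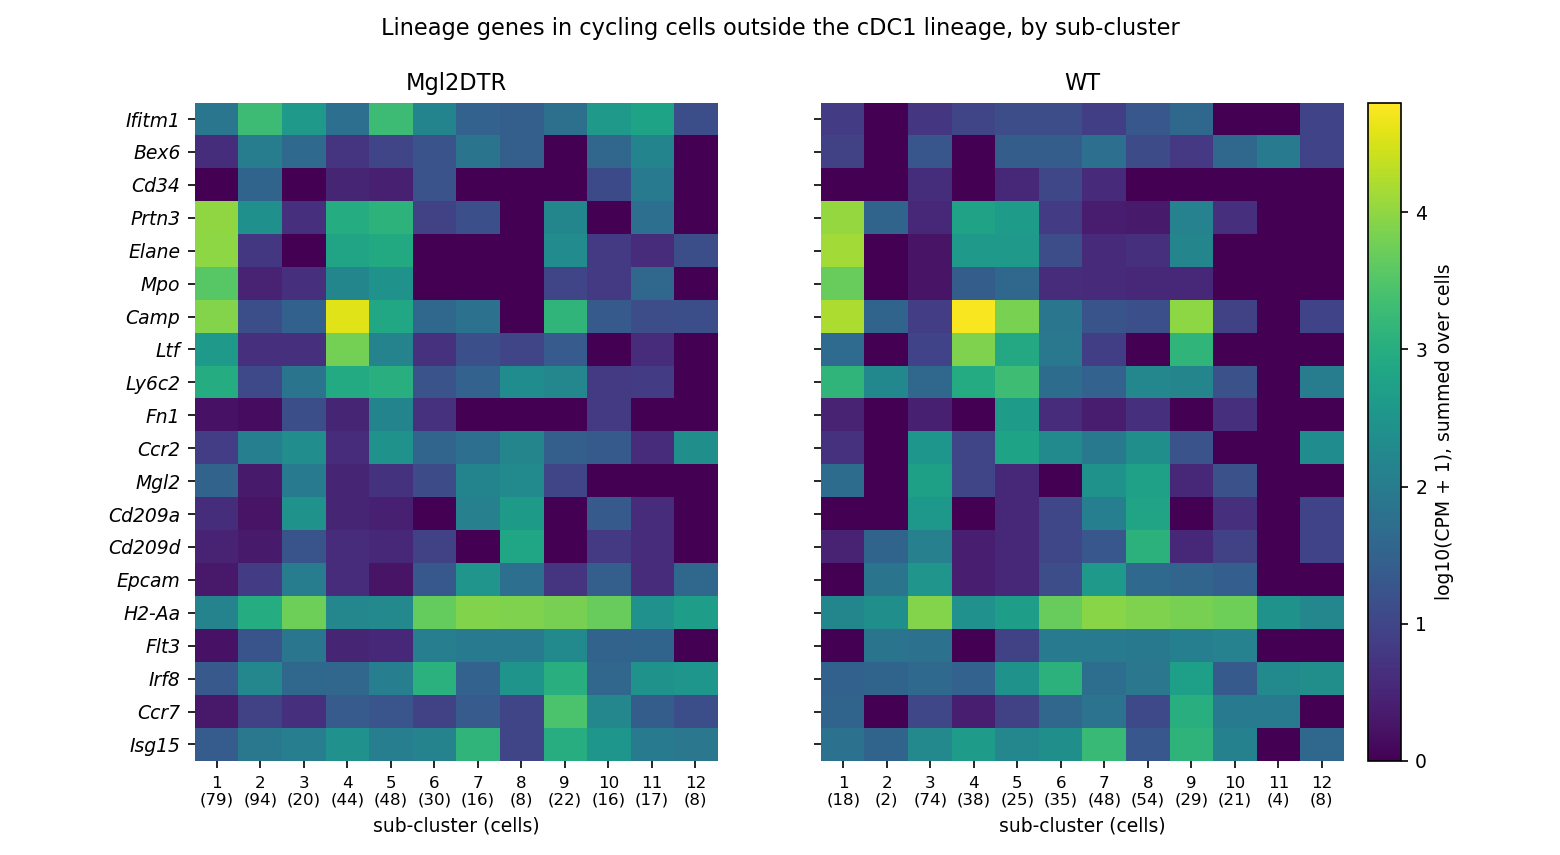
Level of 20 lineage genes in each sub-cluster, as log10 of CPM plus 1 summed over its cells, Mgl2DTR left and WT right, with the number of cells in brackets. Prtn3, Elane and Mpo are high in sub-cluster 1 in both genotypes, Camp and Ltf in sub-cluster 4, and Ifitm1 is high in sub-clusters 2, 5 and 11 in the Mgl2DTR panel. It stands at 12.5 CPM in the WT cells of sub-cluster 5. Sub-clusters 2 and 11 hold only 2 and 4 WT cells, which have no Ifitm1 UMI and are too few for a comparison.

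Monocyte genes were divided. Of 11 measured genes 3 were called higher and 5 lower, beside 7.93% and 11.8% of all measured genes. The list summed to 2057 CPM in Mgl2DTR and 2461 CPM in WT members. Vcan, the proteoglycan versican, stood at 24.5 CPM in Mgl2DTR and 8.46 CPM in WT members (2.90), and Cd14 (1.90) and Clec4e (3.31) were also called higher. Ccr2, the receptor that draws monocytes out of marrow, stood at 88.8 CPM in Mgl2DTR and 185 CPM in WT members (0.481), and Csf1r, Fn1, Ms4a4c and Ms4a6c were also called lower. Ly6c2 stood at 531 CPM in Mgl2DTR and 438 CPM in WT members and was not called. The thinned share of the list was 48.7% in Mgl2DTR and 54.9% in WT members, against 16.9% and 9.69% in T cells of these genotypes.

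Monocyte-like sub-cluster 5 held more Mgl2DTR than WT cells, while most of its monocyte genes stood lower in the Mgl2DTR cells. Of 3600 measured genes 233 were called higher (6.47%) and 409 lower (11.4%), and of 11 monocyte genes 8 were called lower and 2 higher. Ly6c2 stood at 1080 CPM in Mgl2DTR and 2023 CPM in WT cells, Ccr2 at 296 CPM in Mgl2DTR and 602 CPM in WT cells, and F13a1, the A subunit of coagulation factor XIII, at 190.5 CPM in Mgl2DTR and 520 CPM in WT cells. Granulocyte precursor genes went the other way, with 5 of 8 called higher and 1 lower: Prtn3 stood at 1284 CPM in Mgl2DTR and 450 CPM in WT cells (2.86, 2.45 to 3.35). Without the highest Mgl2DTR cell, which held 350 of the 1564 Prtn3 UMIs, the Prtn3 ratio was 2.29. For Elane, 443 of the 1001 UMIs of the Mgl2DTR cells lay in 1 cell. Without that cell the Elane ratio was 1.27, too small for a call. Without the highest cell of each genotype the ratios were 3.89 for Prtn3 and 2.95 for Elane. After Ifitm1, the largest ratios were those of Rgcc (9.07), Dmkn (8.78), Zfp36l1 (4.86) and Mt1 (4.58). Of 11 neutrophil genes 5 were called higher and 4 lower in this sub-cluster, with a median log2 ratio of 0.78. Camp, the neutrophil granule gene, was held by 41.7% of the Mgl2DTR and 28% of the WT cells of this sub-cluster, at 741 CPM in Mgl2DTR and 6877 CPM in WT cells. Of the 903 Camp UMIs of the Mgl2DTR cells 566 lay in 1 cell and 869 in 3. Of the 2753 Camp UMIs of the 25 WT cells 2748 lay in 3 cells, and 18 WT cells had none. The Camp levels of both genotypes thus rest on a few cells, and the part of neutrophil genes in these ratios was not tested. Of 36 G2 and M genes 13 were called lower and none higher in this sub-cluster. The smallest ratios were those of the class II chaperone H2-DMa (0.296), the chemokine Ccl3 (0.303), fibronectin Fn1 (0.323), Ifi27l2a (0.336) and Tifab (0.348). Its Mgl2DTR cells had a median of 22820 UMIs and its WT cells 14765.

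Genes of antigen presentation and of the interferon response were lower in the summed counts of Mgl2DTR members, where 11.8% of all measured genes were called lower. Of 17 measured class II genes 14 were called lower and 1, the protease Ctsl, higher, with a sum of 11117 CPM in Mgl2DTR and 38652 CPM in WT members. H2-Aa stood at 1199 CPM in Mgl2DTR and 5203 CPM in WT members (0.231, 0.225 to 0.236). Within the dendritic sub-clusters few class II genes were called lower: 2 of 14 in sub-cluster 3, 0 of 11 in 6, 1 of 14 in 7, 0 of 13 in 9 and 0 of 12 in 10, with none higher. In sub-clusters 1, 4 and 5 they were called lower in 3 of 10, 5 of 8 and 7 of 12, and higher in 2 of sub-cluster 5 only. Over all members, the pan-dendritic genes Flt3 (0.345) and Zbtb46 (0.290) were among 11 of 12 called lower. The thinned share of that list, 67.4% of Mgl2DTR and 84.9% of WT members, was close to that in T cells (74.5% and 81.4%). This share therefore does not tell members from T cells, and how much of it was background was not tested. Of 23 measured interferon-response genes 20 were called lower and none higher. Isg15, a ubiquitin-like modifier, stood at 149 CPM in Mgl2DTR and 457 CPM in WT members, Ifi27l2a at 465 CPM in Mgl2DTR and 1209 CPM in WT members, and Irf7 at 51.4 CPM in Mgl2DTR and 165 CPM in WT members. Ifitm1, itself known as an interferon-inducible gene, and its relatives Ifitm2 (1.74) and Ifitm6 (1.76) went the other way, and Ifitm3 was not called (1.09). Isg15 was a leading gene of sub-cluster 7 (1659 CPM, 170 CPM in the other members), which held 16 Mgl2DTR and 48 WT cells. Within it 3 of 20 interferon-response genes were called lower and none higher. Lower calls were 1 of 6 in sub-cluster 1, 3 of 10 in 3, 6 of 12 in 4, 6 of 8 in 5 and 3 of 7 in 6, with none higher. Sub-cluster 9 had 3 of 9 lower and 1 higher, and sub-cluster 10 had 2 of 6 higher and none lower.

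In cDC1-like sub-cluster 6, which went against the label, 68 of 1560 measured genes were called higher (4.36%) and 64 lower (4.1%). Jund (2.03), Pim1 (2.01), Baz1a (1.97), Txndc16 (1.91) and Rab7b (1.84) had the largest ratios, and S100a10 (0.379), Tubb4b (0.479), Flna (0.488), Emp3 (0.516) and Fcer1g (0.527) the smallest. Its 30 Mgl2DTR cells had a median of 4732.5 UMIs and its 35 WT cells 9631.

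The other dendritic sub-clusters were small and were compared on 16 to 48 cells of a genotype. In unnamed sub-cluster 7, 126 of 2658 measured genes were called higher (4.74%) and 95 lower (3.57%). Its largest ratios were those of the mitotic genes Cenpf (2.29) and Hmmr (2.27), the integrin Itga4 (2.22), Fyb (2.13) and Rgs1 (2.10), and its smallest those of Ear2 (0.245), Hnrnpl (0.367), Ier3 (0.382), the histone gene Hist1h2ae (0.382) and Zmynd15 (0.402). In activated dendritic-like sub-cluster 9, 316 of 1475 measured genes were called higher (21.4%) and 170 lower (11.5%). Of 15 NF-kB and inflammation genes 12 were called higher there, and of 11 immediate early and handling stress genes 10. Ebi3, a subunit of interleukin-27 and interleukin-35, led them (5.33), followed by Cytip (4.58), the NF-kB inhibitor Tnfaip3 (4.31), Cox17 (3.73) and Srsf7 (3.72), and the tubulins Tuba1b (0.331) and Tubb5 (0.332), Nme2 (0.340), Phf11b (0.348) and Irf7 (0.351) stood lowest. Of 7 measured neutrophil genes 6 were called lower in it, and their part in these ratios was not tested. Without its cells called doublets, 31.8% of the Mgl2DTR and 27.6% of the WT cells, 201 genes were called higher. In unnamed sub-cluster 10, 79 of 1360 genes were called higher (5.81%) and 53 lower (3.9%), from the histone gene Hist1h2ap (2.79) and Ogfrl1 (2.36) to Btg2 (0.386) and Pmaip1 (0.387).

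Among the other lists, genes of the IL-4 and IL-13 response were called lower in 16 of 20 and higher in 1, the receptor chain Il4ra (32.5 CPM in Mgl2DTR, 13.1 CPM in WT members). Several of these genes are cDC2 markers and stand on both lists. The counts of this paragraph stand beside 7.93% of all measured genes called higher and 11.8% called lower, and some of them are near these shares. Activated dendritic genes were called lower in 8 of 9, chemokine receptors in 6 of 11, cDC1 genes outside the rule in 5 of 11, NK and innate lymphoid genes in 5 of 6, B cell genes in 3 of 4 and macrophage genes in 3 of 6, with 1 NK gene (Nkg7) and none of the others called higher. Plasmacytoid genes divided, with 3 of 9 higher and 5 lower, as did lineage transcription factors (7 and 9 of 29), growth factor and cytokine receptors (2 and 9 of 24), NF-kB and inflammation genes (5 and 8 of 19) and immediate early and stress genes (2 and 8 of 20). Single cells carried some of these calls: 1 cell held 88.6% of the UMIs of the B cell gene Jchain, 41.9% of those of Iglc2, 47.8% of those of Cxcl1 and 40.2% of those of Il6, the last a pair of NF-kB list genes called higher. T cell genes were called higher in 4 of 7 and lower in 1. Azurophil proteases and their partners were called higher in 9 of 12 and lower in 1. Of 20 nucleolar and ribosome assembly genes 8 were called higher and none lower, with Npm1, nucleophosmin, at 1363 CPM in Mgl2DTR and 833 CPM in WT members and Ncl, nucleolin, at 826 CPM in Mgl2DTR and 491 CPM in WT members. Glycolytic genes were called higher in 3 of 16 and lower in 1. No more than 2 genes were measured of the mast cell and basophil, eosinophil, erythroid and stromal lists, and none of 4 sex-linked genes was called.

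Some S-phase genes were higher in the Mgl2DTR members. Of 30 S-phase genes 5 were called higher and none lower, led by Cdca7 (1.99, 1.75 to 2.27) with Dut, Hells, Mcm2 and Cdc45, and of 38 G2 and M genes 1 was called higher and none lower, beside 7.93% and 11.8% of all measured genes. S-phase genes summed to 3018 CPM in Mgl2DTR and 2322 CPM in WT members, and G2 and M genes to 8954 CPM in Mgl2DTR and 9070 CPM in WT members. After thinning, S-phase UMIs outnumbered G2 and M UMIs in 13.8% of Mgl2DTR members (10.6 to 17.7%) and 15.4% of WT members (11.8 to 19.7%). The ratio of 0.899 had an interval of 0.604 to 1.34, which included 1. Unthinned, the shares were 14.2% and 16.9%.

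Cycling cDC1 were the cells with at least 3 UMIs of Xcr1 plus Clec9a that pass the other limits (409 Mgl2DTR and 737 WT cells). There the granulocyte precursor list summed to 175 CPM in Mgl2DTR and 176 CPM in WT cells, but to 33.8 CPM in Mgl2DTR and 92.1 CPM in WT cells without the highest cell of each genotype. The cDC2 list summed to 122 CPM in Mgl2DTR and 114 CPM in WT cells, and the interferon list to 4098 CPM in Mgl2DTR and 4343 CPM in WT cells. The IFITM list summed to 320 CPM in Mgl2DTR and 205 CPM in WT cells, and the erythroid list to 4.85 CPM in Mgl2DTR and 124 CPM in WT cells, where 1 cell held 1891 of the 1966 UMIs. Ifitm1 stood at 35.6 CPM in Mgl2DTR and 9.44 CPM in WT cycling cDC1. These cells were split from the members by the rule, so the values are set side by side with no test.

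Cells within the same limits that held no Mki67 or Top2a UMI (2271 Mgl2DTR and 2622 WT cells) had a high Ifitm1 level in Mgl2DTR and low Prtn3 in both genotypes. Ifitm1 stood at 719 CPM in Mgl2DTR and 43.3 CPM in WT cells, and Prtn3 at 25.3 CPM in Mgl2DTR and 13.8 CPM in WT cells. The cDC2 list summed to 616 CPM in Mgl2DTR and 1529 CPM in WT cells, and Mgl2 stood at 27.6 CPM in Mgl2DTR and 246 CPM in WT cells. The monocyte list summed to 3380 CPM in Mgl2DTR and 1393 CPM in WT non-cycling cells, where the members had 2057 CPM in Mgl2DTR and 2461 CPM in WT. The interferon list summed to 6492 CPM in Mgl2DTR and 4975 CPM in WT non-cycling cells, the reverse order of the members. Bex6 was lower than in the members, at 17.0 CPM in Mgl2DTR and 9.59 CPM in WT cells.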

How the data were processed

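The deposited files held raw UMI counts per gene and per hashtag for each cell, and an annotation with hashtag calls and a hashtag margin score. Per the submitters' processing notes, Cell Ranger 6.0.0, Seurat 4.0.4 and mm10 were used, with no roles given. The deposited margin score has no stated scale. The 2 gene tables held 20451 genes and 28926 cells. They shared 0 barcodes, and 0 cells had a UMI total that differed from the annotation. Of these cells 9829 carried a pair of hashtags and 78 none, and they entered no comparison. No further filter on cells was applied, and 0 other per-sample columns were left unused.

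UMIs were summed over members per genotype and scaled to CPM. Exact Poisson, conditional and Clopper-Pearson intervals of 95% were computed, with a floor of 3 counts over the group for zeros. UMIs count molecules, and the intervals cover counting error only. With 1 library per genotype and no animals named, no p-value was computed. Calls were checked on simulated counts. Sub-clusters came from Leiden clustering (1000 variable genes, 20 components, 15 neighbours, resolution 0.8, seed 1). A name needed 3 markers of a list at 2-fold over the other members (10 CPM added) in 20% of cells, with 1 or more among the top 10 genes. This naming rule, the comparisons in sub-clusters with 15 to 29 cells of a genotype, and the settings that leave out sub-clusters, single cells or genes from clustering were chosen after seeing the data. Members and lists were chosen with earlier results of these data known. Doublets were kept and called from 50 neighbours.

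Named genes were the 12 largest and 12 smallest called ratios among genes with at least 100 counts, present in 10% of cells of the higher genotype and with at most 20% of counts in 1 cell, without clone-named genes or receptor segments. In each sub-cluster compared, the 5 largest and 5 smallest were taken, 2 of each for sub-cluster 10 in the text, and up to 6 genes came from each list. Genes the text gives outside this rule, such as Camp in sub-cluster 5 and Mgl2 in sub-cluster 1, were chosen after their values were seen. Promoters were from RefSeq (GRCm38.p6) and gene positions from GENCODE vM21. Software was Python 3.11.15 with numpy 2.4.6, scipy 1.17.1, pandas 2.3.3, scikit-learn 1.9.0, igraph 0.11.9, leidenalg 0.10.2 and matplotlib 3.10.9.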

Additional observations from a re-analysis of the deposited data

Results flagged for a closer look

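Cells with a pair of hashtags lie outside the comparisons. Those within the limits of the rule that carried the Mgl2DTR hashtag and the one of neither genotype (90 cells) held Ifitm1 at 521 CPM (484 to 560), above the 10.97 CPM of WT members. Cells with the WT hashtag and that same other one (40 cells) held Ifitm1 at 122 CPM (96.3 to 152) and Prtn3 at 1865 CPM (1761 to 1973), against 10.97 and 1142 CPM in WT members. That hashtag bears different names in different deposited files, so its cells were not assigned to a group.

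Ier3, an immediate early gene, had a ratio of 3.21 in neutrophil-like sub-cluster 4 and of 0.382 in unnamed sub-cluster 7, on opposite sides of 1, and the difference between these ratios was not tested. It was 1 of 238 genes called higher in 1 sub-cluster and lower in another, among 1931 genes called in at least 1.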

How the results depend on the processing

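Of 594 recomputed values 539 kept their call (higher, lower or not called), or stayed within 1.5 times for counts. A ratio that stayed uncalled was counted as kept even where it crossed 1. Among 399 ratios of named genes 384 kept their call, 4 were no longer called, 3 became called and 8 changed both call and direction. The ratio of member shares was 1.06 with hashtag margins above the median of the genotype, 1.36 without sub-cluster 2, 1.45 among cells other than T cells and 1.24 with the rule applied after thinning. The margin setting gave 530 genes higher and 348 lower, against 757 and 1130 over all members, and ratios of 0.0767 for Ctsg, 0.287 for Ms4a3, 0.270 for Prtn3, 0.173 for Elane and 0.207 for Mpo. It kept 3 cells of sub-cluster 1, and the cause was not tested. With all exclusion sums at 0, 489 genes were higher. Without members with 3 or more UMIs of the T, B, plasmacytoid, NK or neutrophil lists, 9 Mgl2DTR and 8 WT members were left, with 10 genes higher and 42 lower, and ratios of 1.11 for H2-Aa and 4.28 for Isg15. A minimum of 200 counts, which tests fewer genes, gave 419 higher and 621 lower, and thinning to 2000 UMIs gave 241 and 274. Bex6 had a ratio of 0.844 without sub-cluster 2. The cDC2 list share had a ratio of 0.767 unthinned. Thinned, sub-cluster 4 had 42 genes higher and 4 lower and sub-cluster 6 had 20 and 31. Sub-cluster 6 had 43 higher without cells called doublets, and 120 higher and 165 lower with cells scaled alike. Each gene table alone was not run, since the tables divide the cells by strongest hashtag. No paired analysis was possible because each genotype was 1 library. Thinning left 3646 genes at the minimum count over all members, against 9544, and gave fewer called genes in each of the 8 sub-clusters compared. Without the cell with the most Ifitm1 UMIs, a Mgl2DTR cell chosen after seeing the data, the Ifitm1 ratio was 5.19 in sub-cluster 1, 3.001 in sub-cluster 4 and 135 in sub-cluster 5. In sub-cluster 9 that cell was a WT cell with 14 of the 15 WT UMIs, and without it the ratio was 19.8 and became called. There the ratio was 4.88 without the highest cell of each genotype and 0.372 without the highest Mgl2DTR cell, which held 10 of 13 UMIs. That ratio thus rests on which cell was left out.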
